A study of Mus musculus with 18 samples.

Results

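The nuclear genes for the subunits of mitochondrial complexes I to V were followed in 3 sorted lung macrophage populations. They were chosen by name: every protein-coding row of the count table whose symbol begins with Ndufa, Ndufb, Ndufc, Ndufs or Ndufv and a number, Uqcr, Cox4 to Cox8 or Atp5, plus Sdha, Sdhb, Sdhc and Sdhd. This gave 84 of 21254 genes, with 38 assigned to complex I, 4 to complex II, 8 to complex III, 17 to complex IV and 17 to complex V. The names stand for the complex in which each gene is usually listed, although Ndufa4 is now known as a complex IV subunit and Cox7a2l, also called SCAFI, is known as an assembly factor of respiratory supercomplexes. The symbol rule does not take in Ndufab1 or the ATP synthase inhibitor Atpif1.

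RNA was measured in Ly6C+ monocyte-derived macrophages (moMs, CD45+CD11b+MHC-II-Ly6C+), transitional interstitial macrophages (tnsIMs, CD45+CD11b+MHC-II+Ly6C+, called trIMs in the sample labels) and mature interstitial macrophages (matIMs, CD45+CD11b+MHC-II+Ly6C-). Each was sorted from lungs of wild-type (WT) and Ezr-KOm mice, with 3 libraries in each of the 6 groups and 18 in all. Ezr-KOm mice carried a floxed ezrin gene (Ez fl/fl) and the Cx3cr1tm1.1(cre)Jung/J allele, which drives Cre from the Cx3cr1 promoter and so deletes ezrin in monocytes and macrophages, but also in other cells that have used that promoter. The WT mice carried the same Cre without the floxed gene, so that Cre was present in both genotypes. All mice were 3 to 5 months old, on a C57BL/6 background and of both sexes. All were exposed for 15 min to nebulized Pseudomonas aeruginosa lipopolysaccharide (LPS), 24 h before sacrifice. The nebulized solution held 12.5 mg of LPS in 5 ml of PBS, and the dose inhaled by each mouse is not given. There was no group without LPS. By the study's account the replicates were mice, the same number for each genotype as there were libraries in a group, but the labels tie no library and no replicate number to a mouse. P-values measure the spread between these libraries.

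The respiratory chain passes electrons from NADH (complex I) and succinate (complex II) through complex III to oxygen at complex IV, and the proton gradient this builds drives ATP synthesis by complex V. Most of its subunits are encoded in the nucleus, translated in the cytosol and imported, while a small core is encoded in mitochondrial DNA, so both genomes must supply each complex except complex II. In macrophages the chain is also a signalling device: after LPS, succinate oxidation and reverse electron flow through complex I feed reactive oxygen species, and the balance between respiration and glycolysis differs between inflammatory and tissue-resident macrophages. Several complex IV subunits exist as isoform pairs, with a common form and a form restricted to muscle, testis, or hypoxic or vascular cells.

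Library totals ran from 16512783 to 48460995 counts. Ezr ran from 497 to 741 CPM (counts per 1e6 of the library's scaled total) in the 9 WT libraries and from 93.8 to 282 in the 9 Ezr-KOm libraries, and it was lower in Ezr-KOm matIMs (log2 difference -2.29, adjusted p = 7.73e-05, edgeR) and tnsIMs (-1.62, adjusted p = 0.00365), whereas the difference of -1.2 between moMs of the 2 genotypes had an adjusted p of 0.0549. The sort markers followed the gates: the MHC-II gene H2-Ab1 ran from 1141 to 1548 CPM in WT moMs, 7930 to 18400 in tnsIMs and 12520 to 17060 in matIMs, and Ly6c2 from 470 to 487.5, 110 to 288 and 33.1 to 69.1 CPM. Markers of other lung cells were also present. The summed level of 10 lung epithelial genes was 137 to 162.5 CPM in WT moMs, 3063 to 4693 in tnsIMs and 591.5 to 659 in matIMs, 8 endothelial genes summed to 106 to 136, 313.5 to 534 and 79.7 to 108 CPM, and 10 dendritic cell genes summed to 83.5 to 125 CPM in WT moMs, 315 to 571 in tnsIMs and 5746 to 7880 in matIMs.

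The promoters of these genes come first, because many of them are known to share binding motifs there. RefSeq windows of 300 bases, 250 before to 50 after the annotated start (build GRCm38.p6), were at hand for 68 of the 84 genes, in 73 windows. Nuclear respiratory factor 1 (NRF1), the ETS factor GABPA, YY1 and the estrogen-related receptors (ERR) are the classical regulators of respiratory chain genes. The NRF1 letters GCGCANGCG stood in 28.8% of the member windows and in 6.25% of all 32851 windows, on either strand. The ETS letters CCGGAAG stood in 23.3% and 8.86%, the YY1 letters AAGATGGCG in 9.59% and 1.40%, the ERR letters TCAAGGTCA in 2.74% and 0.423%, and the CREB letters TGACGTCA in 5.48% and 1.79%. Member windows had a median of 6.33 CpG per 100 bases against 2.33 in all windows, and the motifs rich in CpG were counted without regard to this difference. A match describes letters and not binding.

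Sdhd is printed for holding 3 of these motifs, Ndufb10 because it had the smallest p between genotypes, and Cox5a and Cox7a2l because they were called between populations. Capitals mark motif matches. The Sdhd window, chr9:50603800-50604099 (minus strand), held an NRF1, an ETS and an ERR match, and the Ndufb10 window, chr17:24724374-24724673 (minus strand), an NRF1 match. The windows of Cox5a, chr9:57520982-57521281 (plus strand), and Cox7a2l, chr17:83514284-83514583 (minus strand), held none of the 5 motifs. Cox4i1, Cox4i2, Cox6a2 and Ndufa4l2 had no window in the table used.
Sdhd: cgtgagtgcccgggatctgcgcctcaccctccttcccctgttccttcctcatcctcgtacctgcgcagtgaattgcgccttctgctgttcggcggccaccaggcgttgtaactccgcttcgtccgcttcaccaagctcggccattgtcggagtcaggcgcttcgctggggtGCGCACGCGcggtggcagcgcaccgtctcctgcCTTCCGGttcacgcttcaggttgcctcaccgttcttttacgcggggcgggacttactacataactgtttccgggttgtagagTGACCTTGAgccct
Ndufb10: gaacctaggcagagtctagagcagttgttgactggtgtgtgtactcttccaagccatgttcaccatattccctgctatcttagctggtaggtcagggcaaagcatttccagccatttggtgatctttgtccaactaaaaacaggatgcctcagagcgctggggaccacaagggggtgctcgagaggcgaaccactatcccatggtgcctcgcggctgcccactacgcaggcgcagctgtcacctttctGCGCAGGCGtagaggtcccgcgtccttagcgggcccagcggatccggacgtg
Cox5a: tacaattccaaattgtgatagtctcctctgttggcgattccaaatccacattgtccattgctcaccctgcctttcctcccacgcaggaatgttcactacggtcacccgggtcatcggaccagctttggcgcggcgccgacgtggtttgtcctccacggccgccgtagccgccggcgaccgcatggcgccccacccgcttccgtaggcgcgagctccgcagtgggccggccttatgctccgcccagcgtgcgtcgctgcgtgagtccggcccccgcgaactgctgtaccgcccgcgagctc
Cox7a2l: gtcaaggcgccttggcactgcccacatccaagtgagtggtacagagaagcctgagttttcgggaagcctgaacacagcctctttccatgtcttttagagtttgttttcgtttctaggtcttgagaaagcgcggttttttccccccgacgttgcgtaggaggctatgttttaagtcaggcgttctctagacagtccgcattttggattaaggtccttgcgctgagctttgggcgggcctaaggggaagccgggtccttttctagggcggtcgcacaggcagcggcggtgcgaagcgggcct

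Nearly all members were expressed well above the typical gene. Of the 84, 83 passed the filter on low counts. The exception was Cox8b, a muscle form of subunit 8, which had between 0 and 5 counts in any library. The median of the tested members was 88.8 CPM, against 11.0 CPM over all 15811 genes tested. On a per-length scale, TPM (counts divided by the median length of a gene's transcripts and scaled to a fixed total per library), the median member stood at 194 TPM and the median gene at 8.05, and 78.3% of members against 19.1% of all genes exceeded 50 TPM. Members lay on all autosomes but chromosome 14, and on the X chromosome, with no more than 8 on any.

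Levels per length differed widely between subunits of the same complex. In complex V, Atp5b, the catalytic beta subunit, was the highest of all members at 1329 TPM averaged over the 18 libraries, Atp5a1, the alpha subunit, stood at 590, and Atp5o, the peripheral stalk subunit OSCP, was lowest at 26.8. In complex I the highest was Ndufb7 at 438 TPM, while the core subunits Ndufv1 and Ndufs1 stood at 136 and 42.5, and the lowest was Ndufa4l2 at 1.69. In complex II the order was Sdhd (296), Sdha (212), Sdhb (129.5) and Sdhc (73.4 TPM). In complex III Uqcrc1, a core protein, led at 562.5 TPM, the Rieske iron-sulfur subunit Uqcrfs1 stood at 230, and Uqcr11 was lowest at 82.3. In complex IV Cox6a1 led at 1078 TPM, Cox4i1 stood at 620, Cox5b at 330 and Cox5a at 195.5, and Cox4i2 was lowest at 4.75. These orders depend on the annotated lengths, which run from 355.5 to 7291 bases among members. With the longest annotated transcript in place of the median, Ndufb7 stood at 77.1 TPM, while Atp5b (1606) and Cox6a1 (1226) stayed the highest of all members. The lowest were then Atp5l (4.69) in complex V, Uqcrc2 (83.75) in III and Cox6a2 (4.55) in IV. In complex I, Ndufa2 was then highest (522.5), and in complex II Sdha (242) passed Sdhd (227).

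The restricted isoforms were scarce in all groups. As a share of the pair's summed TPM, Cox4i2 made up at most 1.91% beside Cox4i1 in any library, Cox6a2 at most 0.931% beside Cox6a1, Cox6b2 at most 2.31% beside Cox6b1 and Ndufa4l2 at most 1.5% beside Ndufa4. Cox7a1, the muscle form of subunit 7a, reached 6.83 to 21.1% of its pair with Cox7a2, although its own level was only 0.588 to 2.92 CPM, with a length of 5162.5 bases for Cox7a2 against 436.5 for Cox7a1. In total 6 tested members had a mean below 10 CPM, and 5 of these are the restricted forms just named.

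Some members have near-identical copies elsewhere in the genome. Coding sequences of 27 members matched an annotated pseudogene at 90% identity over 80% of their length or more. The pseudogenes of the count table summed to at most 5.43% of a member's counts, for Atp5g1. Cox5b-ps, which the table lists as protein coding and which therefore counts among the members, was 99.2% identical to Cox5b and held 1.26% as many counts. Its values, and those of Cox5b to that small extent, are uncertain for that reason. Cox7c, Atp5h and Atp5g1 also matched stretches within transcripts of the protein-coding genes Pitpna, Rpl37 and Adsl, at 98.9%, 98.97% and 92.2% identity. Counts of those genes cannot be divided between the stretch and the rest of the gene, so reads that these 3 members may share with them were not sized.

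Summed over all 83 tested members, the mean level was lowest and its SD smallest in moMs of both genotypes, at 9192 ± 582.5 CPM in WT and 8957 ± 360.6 in Ezr-KOm (mean ± SD, n = 3). It was 9743, 9251 and 8582 CPM in WT moMs, 11330, 11450 and 8292 CPM in WT tnsIMs and 11670, 10260 and 8514 CPM in WT matIMs. The first and second library of each interstitial population lay above all 3 moM libraries, and the third lay below them, so the groups overlapped. In such bulk libraries fewer cells of a type and less RNA per cell cannot be told apart. In Ezr-KOm mice the sums were 8937, 9327 and 8607 CPM in moMs, 10730, 10970 and 7828 CPM in tnsIMs and 9520, 8621 and 8954 CPM in matIMs. In these mice tnsIMs held both the highest libraries and the lowest one.

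**Figure D1:**
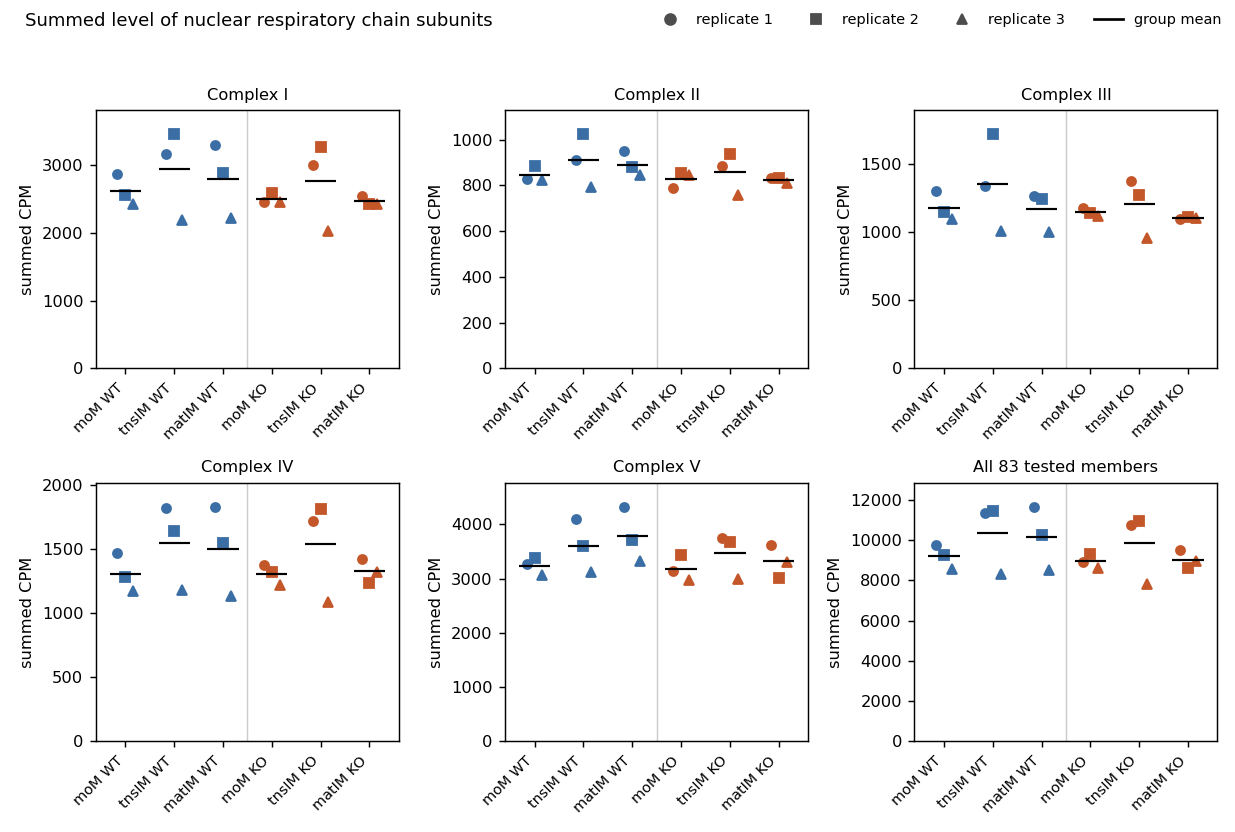
Summed CPM (y axis) of the tested members of each respiratory complex and of all 83, in each of the 18 libraries by population and genotype (x axis; KO stands for Ezr-KOm); symbols give the replicate number and lines the group means. The third libraries of WT tnsIMs, Ezr-KOm tnsIMs and WT matIMs, at 8292, 7828 and 8514 CPM in all, lie well below the other libraries of their groups. Complex II, with the smallest sums, spans 756 to 1025 CPM.

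The complexes did not share this spread equally. Complex II ranged from 756 to 1025 CPM over all 18 libraries, complex I from 2030 to 3461, complex III from 958 to 1718, complex IV from 1087 to 1833 and complex V from 2967 to 4328. Sdha, the flavoprotein of succinate dehydrogenase, had the smallest SD between replicates of all members, 0.0712 on the log2 scale, and Atp5a1 had 0.112. The median SD was 0.287 for members and 0.328 for all tested genes.

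Members rose and fell together from library to library. In WT matIMs, 77 of the 83 were lowest in the third library and 74 highest in the first. In WT tnsIMs 72 were lowest in the third library, and in Ezr-KOm tnsIMs 69, whereas among all tested genes 32.9%, 28% and 31.4% were lowest in these libraries. The median member deviated from its group mean by -0.33, -0.34 and -0.39 on the log2 scale in these 3 libraries, and the median of all genes by at most 0.061 in either direction.

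Transcript length moved with this pattern. Members are short: 44.6% of them, against 8.79% of all tested genes, had a length under 750 bases. Among all tested genes of that class the median deviation was -0.17 in the third WT matIM library, -0.16 in the third Ezr-KOm tnsIM library and -0.034 in the third WT tnsIM library, and among genes over 3000 bases it was 0.11, 0.13 and 0.16. The members deviated further than other genes of their length: by -0.396, -0.483 and -0.415 under 750 bases and still by -0.289, -0.325 and -0.309 over 3000 bases, where only 10 members fall. Whether RNA quality, library preparation or the cells themselves set these libraries apart was not tested.

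**Figure D2:**
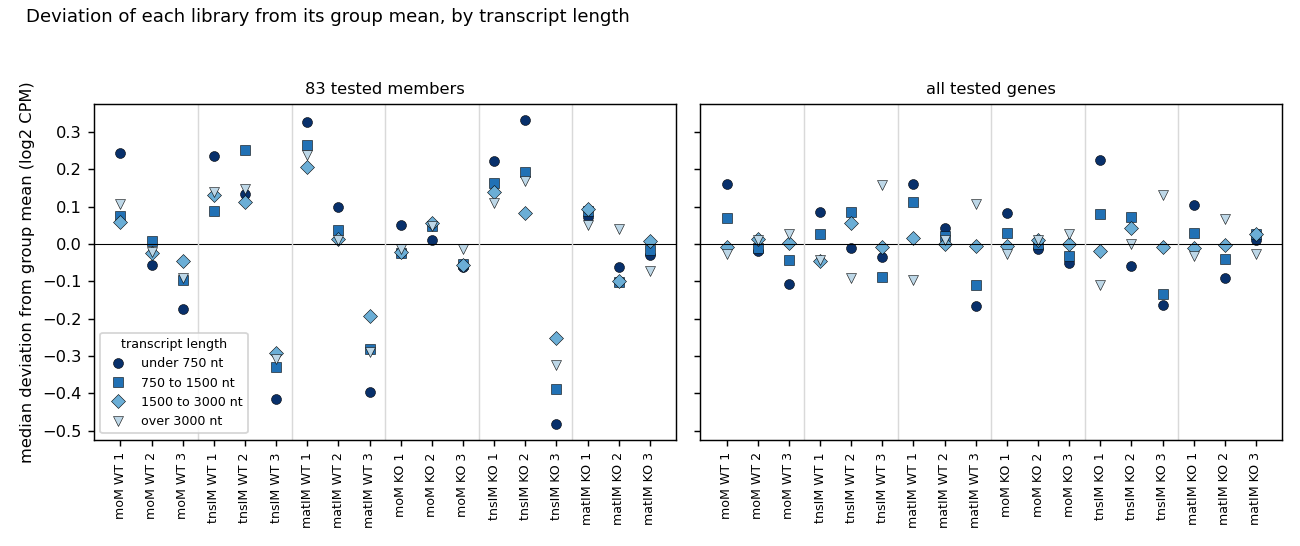
Median deviation of each library from the mean of its group (y axis, log2 CPM) by class of transcript length, for the 83 tested members (left) and all tested genes (right), in the 18 libraries (x axis; KO stands for Ezr-KOm). Members of every length class deviate by -0.192 to -0.483 in the third libraries of WT tnsIMs, WT matIMs and Ezr-KOm tnsIMs, while long genes in general rise there.

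Transcripts of the mitochondrial genome did not follow the same order in every group. Mitochondrially encoded genes held only 0.142 to 0.321% of the counts of a library, and 11 of the 13 mitochondrially encoded subunits were in the table. These 11 summed to 2153, 1350 and 1589 CPM in WT moMs, 1275, 1133 and 1493 CPM in WT tnsIMs and 1848, 1998 and 1539 CPM in WT matIMs. In WT matIMs the third library was lowest for both sets, and in WT moMs the first was highest for both. In WT tnsIMs the third library, lowest for nuclear subunits, was the highest for mitochondrial ones. In Ezr-KOm tnsIMs the sums were 1878, 1032 and 1440 CPM, and the third library, again lowest for nuclear subunits, lay between the others. They were 2154, 1549 and 1710 CPM in Ezr-KOm moMs. In Ezr-KOm matIMs they were 1756, 1582 and 1501 CPM, with the first library highest for both sets. None of the 10 mitochondrially encoded subunits that passed the filter was called in any of the comparisons below.

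The first comparison asked how the subunits differ between monocyte-derived and interstitial macrophages of WT mice. Genes are called here when edgeR's quasi-likelihood test, adjusted after Benjamini and Hochberg over all 15811 genes, gave a p below 0.05. Between tnsIMs and moMs, 6 of the 83 members were called, 4 higher and 2 lower in tnsIMs. Without the third moM library 3 were called, and without the third tnsIM library 9, but the share of all genes called in those fits is not given here. The 6 are 7.23% of the members, whereas 21.6% of all tested genes were called. The study's own rule, an absolute log2 fold change over 0.75 with an unadjusted p under 0.05, took in 6 members (5 higher, 1 lower) and 21.0% of all genes. The median member was higher in tnsIMs by 0.16 on the log2 scale and 61 of 83 were above zero, against a median of 0.015 over all genes. With upper-quartile factors 72 were above zero, and the median of all genes moved to 0.108 beside 0.254 for members. By complex the medians were 0.16 for complex I, 0.080 for II, 0.15 for III, 0.25 for IV and 0.21 for V. The common core subunits Ndufv1, Ndufs1, Sdha, Uqcrc1, Uqcrfs1, Cox4i1, Cox5b, Atp5a1 and Atp5b had differences from -0.041 (Ndufs1) to 0.27 (Atp5b), none called.

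**Figure D3:**
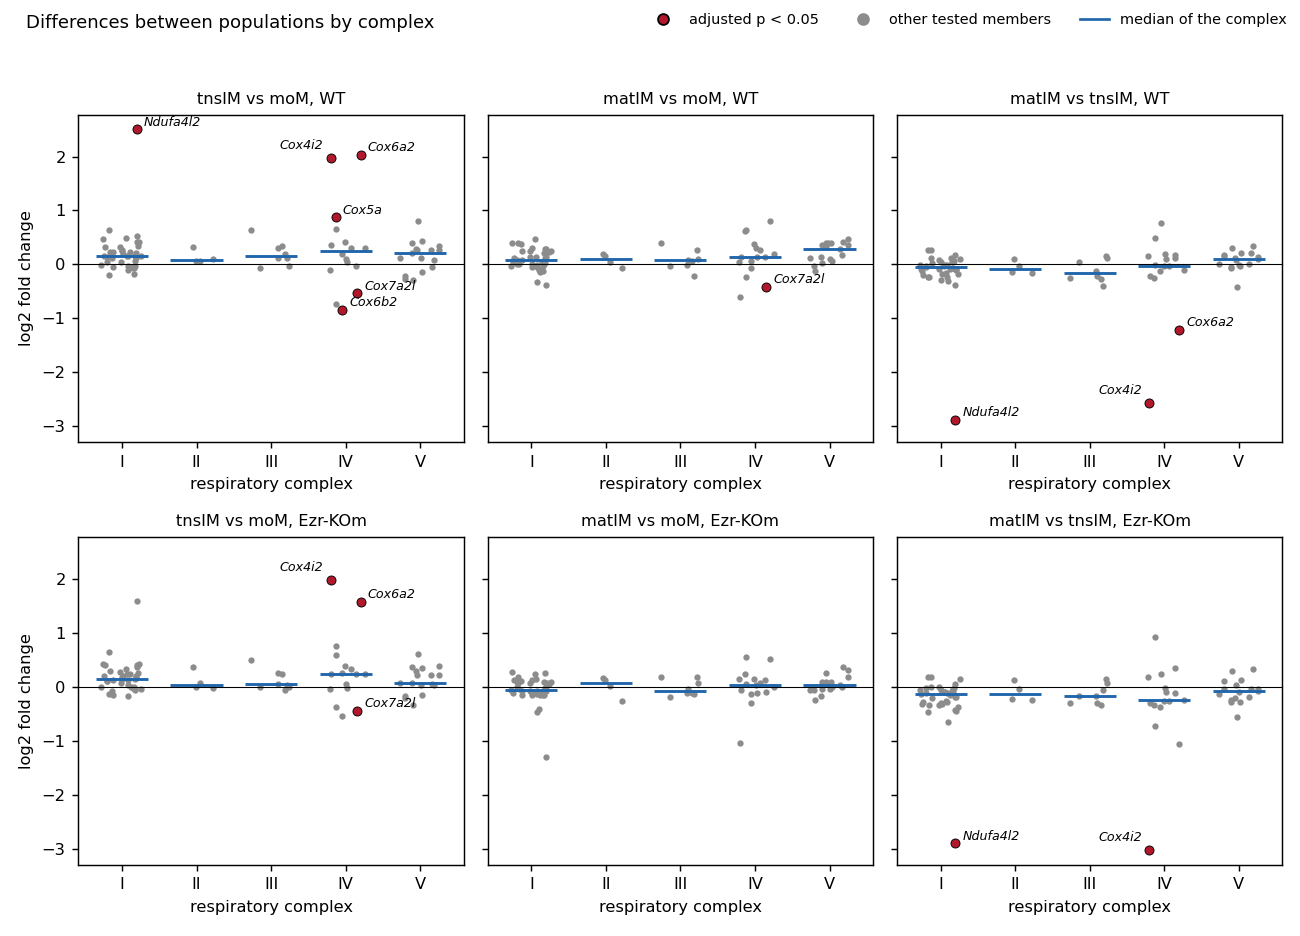
Log2 fold change (y axis) of each tested member by respiratory complex (x axis) in the 3 comparisons between populations, for WT (top) and Ezr-KOm mice (bottom); red points have an adjusted p under 0.05 and blue lines are medians of a complex. Most members lie near zero, the restricted isoforms Cox4i2, Cox6a2 and Ndufa4l2 stand 1.58 to 2.5 higher in tnsIMs than in moMs, and Cox7a2l lies below zero against moMs.

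The largest differences belonged to 3 scarce isoforms. Cox4i2, the form of subunit 4 known from lung and from oxygen-sensing vascular cells, lies on chromosome 2 at chr2:152596093-152606957 (GRCm39, as all gene positions here). It stood at 0.683, 1.08 and 1.02 CPM in WT moMs, 2.67, 4.95 and 3.45 in tnsIMs and 1.06, 0.299 and 0.484 in matIMs. All tnsIM libraries lay above all others. It was 1.97 ± 0.48 (log2 fold change ± SE, n = 3 libraries a group) higher in tnsIMs than in moMs (adjusted p = 0.00619, edgeR) and differed by -2.57 ± 0.49 between matIMs and tnsIMs (adjusted p = 0.000914, edgeR).

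Cox6a2, the heart and muscle form of subunit 6a (chr7:127804607-127805559), stood at 0.455, 0.456 and 0.512 CPM in WT moMs, 2.503, 1.585 and 1.763 in tnsIMs and 1.06, 0.897 and 0.559 in matIMs. The gene overlaps Itgad on the other strand, which averaged 0.205 CPM. Its libraries again did not overlap between tnsIMs and either other population. The difference was 2.03 ± 0.43 from moMs (adjusted p = 0.00222, edgeR). From tnsIMs to matIMs it was -1.22 ± 0.41 (adjusted p = 0.0429, edgeR), a call lost without either the first or the third tnsIM library or the second or the third matIM library (adjusted p = 0.0557 to 0.176).

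Ndufa4l2, a hypoxia-induced homolog of Ndufa4 that is also known as a pericyte marker (chr10:127350836-127353023), stood at 0.285, 0.414 and 0.276 CPM in WT moMs, 1.293, 2.6 and 1.763 in tnsIMs and 0.310, 0.256 and 0.186 in matIMs. All tnsIM libraries exceeded all others. It was 2.5 ± 0.67 higher than in moMs (adjusted p = 0.0121, edgeR), though 0.0549 without the third WT moM library, and differed by -2.88 ± 0.69 between matIMs and tnsIMs (adjusted p = 0.00543, edgeR). The gene overlaps Shmt2 on the other strand, which averaged 50.2 CPM, and as the strand column used for counting is not given in the sources used here, reads of the pair may not be fully separated.

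Markers of other cells stood higher in the same libraries. Of the lists for lung epithelial, endothelial and fibroblast cells, 8 of 10, 8 of 8 and 6 of 8 genes were called higher in WT tnsIMs than in moMs, and 7 of 10, 8 of 8 and 6 of 8 lower in matIMs than in tnsIMs. B cell (6 of 8), dendritic (5 of 10), neutrophil (5 of 10) and alveolar macrophage markers (3 of 8) were also called higher in tnsIMs than in moMs. Called lower there were 1 dendritic, 1 neutrophil and 2 alveolar macrophage markers. In matIMs 8 of 8 B cell and 7 of 10 dendritic markers were called higher than in tnsIMs. The pericyte genes Higd1b and Notch3, picked after these values were seen, stood at 0 to 0.683 and 0.399 to 0.669 CPM in WT moMs, 1.63 to 3.23 and 1.08 to 3.64 in tnsIMs and 0.0854 to 0.261 and 0.0854 to 0.373 in matIMs. Pdgfrb, a receptor of pericytes and fibroblasts, stood at 5.39 to 5.76 CPM in WT moMs, 11.3 to 23.4 in tnsIMs and 2.52 to 3.99 in matIMs. Other pericyte genes overlapped between moMs and tnsIMs: Rgs5 stood at 0 to 0.342 and 0.127 to 0.823 CPM, and at 0 in all WT matIMs, and Kcnj8 at 0.0787 to 0.285, 0.25 to 1.01 and, in matIMs, 0.224 to 0.488. The sort for CD45 and CD11b is meant to remove epithelial, endothelial, fibroblast and mural cells, none of which carries CD45. Cox6a2, unlike Higd1b and Notch3, stood higher in every WT matIM library than in every WT moM library. The part of any of the cells named in this paragraph in the levels of Cox4i2, Cox6a2 and Ndufa4l2 was not tested.

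**Figure D4:**
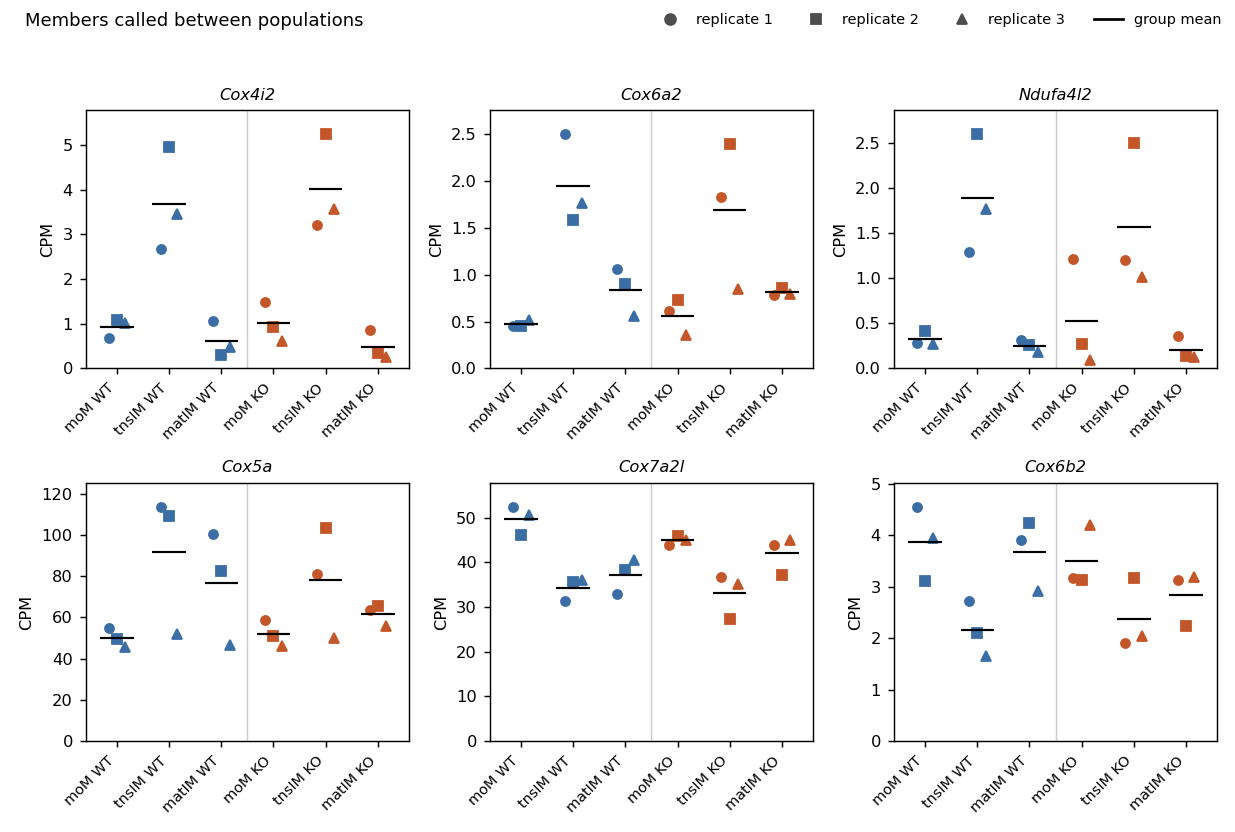
CPM (y axis, from 0) of the 6 members called between WT populations, in each library by population and genotype (x axis; KO stands for Ezr-KOm), with replicate numbers as symbols and group means as lines. Cox4i2, Cox6a2 and Ndufa4l2 peak in tnsIMs of both genotypes at no more than 5.25 CPM, Cox7a2l is lower in tnsIMs than in moMs in every library, and Cox5a is split between the first and second libraries and the third.

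Among well-expressed members, Cox7a2l and Cox5a were called. Cox7a2l (chr17:83809347-83824759) joins complexes III and IV into supercomplexes. It stood at 52.5, 46.2 and 50.6 CPM in WT moMs, 31.3, 35.5 and 36.2 in tnsIMs and 32.9, 38.4 and 40.6 in matIMs, so that every interstitial library lay below every moM library. The difference was -0.54 ± 0.14 in tnsIMs (adjusted p = 0.00908, edgeR) and -0.42 ± 0.14 in matIMs (adjusted p = 0.0329, edgeR). In matIMs the call was lost with library totals in place of scaling factors (adjusted p = 0.123) and without the first or the third moM or the first or second matIM library (0.0519 to 0.107). It went against the other members, whose median was positive in both comparisons.

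Cox5a, the subunit next to Cox4 at the matrix side of complex IV (chr9:57428557-57439709), stood at 55.05, 49.4 and 45.5 CPM in WT moMs, 114, 109 and 51.8 in tnsIMs and 101, 82.7 and 46.5 in matIMs. The third tnsIM library fell inside the moM range. It was 0.87 ± 0.29 higher in tnsIMs (adjusted p = 0.0391, edgeR), but without any single moM library or without the first or second tnsIM library the adjusted p was 0.0727 to 0.168. Against moMs, matIMs differed by 0.62 (adjusted p = 0.139).

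Cox6b2, the testis form of subunit 6b (chr7:4754791-4756093), was called in the other direction. It stood at 4.55, 3.11 and 3.94 CPM in WT moMs, 2.71, 2.09 and 1.65 in tnsIMs and 3.90, 4.23 and 2.91 in matIMs, with no overlap between tnsIMs and moMs. The difference of -0.84 ± 0.29 (adjusted p = 0.0462, edgeR) missed the threshold without any 1 of 5 of the 6 libraries (adjusted p = 0.0524 to 0.162), all but the first tnsIM library, and with upper-quartile factors (0.0835) or library totals (0.0649).

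The replicate numbers paired the libraries in this comparison by the check described under the processing, and with the number as a block 9 members were called, with 28.9% of all genes. The 3 added were Uqcr10, a small complex III subunit (0.60, adjusted p = 0.0187 with the block against 0.0931 without), Ndufb6 of the complex I membrane arm (0.60, 0.0225 against 0.0913) and Atp5o (0.69, 0.0423 against 0.117). For Uqcr10 the libraries read 83.6, 70.0 and 62.0 CPM in WT moMs and 129, 131 and 75.4 in tnsIMs, each tnsIM library above the moM library of its number. For Atp5o they read 29.4, 25.7 and 25.2 CPM against 52.6, 64.7 and 23.75, with the third pair in the opposite order.

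Between matIMs and moMs of WT mice Cox7a2l was called without a replicate block, 1 of 83 members, beside 24.8% of all genes, and by the study's rule 0 members beside 22.8%. With the block, Atp5b, Atp5d and Cox5a were called too, higher in matIMs by 0.36, 0.45 and 0.55 (adjusted p = 0.0284, 0.0357 and 0.0372, edgeR), beside 30.9% of all genes, although the check of replicate numbers did not show every pair of these libraries to deviate together. The median member difference was 0.12, with 62 above zero, but it was -0.0531 without the first matIM library and 0.271 without the third. With library totals in place of TMM factors 73 were above zero, and the median of all genes was 0.111. Dendritic and B cell markers stood higher in the same matIM libraries, 8 of 10 and 8 of 8 called. Proliferation (8 of 12), lung epithelial (7 of 10), alveolar macrophage (6 of 8) and neutrophil markers (4 of 10) were also called higher. Called lower were 1 alveolar macrophage, 1 neutrophil, 5 of 8 endothelial and 3 of 8 fibroblast markers. The part of such cells and of proliferation in the members' levels was not tested. Complex V had the highest median of the 5 complexes, 0.28, with 15 of 17 above zero. Atp5b stood at 976.5, 1145 and 982 CPM in moMs and 1498, 1274 and 1217 in matIMs, which do not overlap, with a difference of 0.36 ± 0.14 (adjusted p = 0.0722, edgeR).

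Between matIMs and tnsIMs of WT mice 3 members were called, all lower in matIMs, namely Cox4i2, Ndufa4l2 and Cox6a2, beside 18.5% of all genes. The study's rule added Cox6b2, 0.77 higher in matIMs (adjusted p = 0.0759), and took in 19.6% of all genes. The median member differed by -0.024, with 36 of 83 above zero, and by 0.0123, with 46 above zero, with library totals.

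The same comparisons in Ezr-KOm mice share no library with those in WT mice. Between tnsIMs and moMs, 3 members were called, beside 14.3% of all genes, and 57 of 83 were above zero, or 73 with upper-quartile factors. Cox4i2 stood at 1.48, 0.926 and 0.617 CPM in moMs and 3.2, 5.25 and 3.56 in tnsIMs, a difference of 1.99 ± 0.47 (adjusted p = 0.00689, edgeR). Cox6a2 stood at 0.609, 0.733 and 0.353 CPM and at 1.83, 2.39 and 0.848, without overlap, a difference of 1.58 ± 0.42 (adjusted p = 0.0141, edgeR), with adjusted p of 0.0888 without the third moM and 0.0985 without the second tnsIM library.

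Cox7a2l was lower in Ezr-KOm tnsIMs too, at 36.7, 27.3 and 35.2 CPM against 43.89, 45.85 and 45 in moMs. The difference of -0.44 ± 0.14 (adjusted p = 0.0371, edgeR) rose above the threshold without any single moM library or without the second or the third tnsIM library (0.0629 to 0.186), and with both other scalings by edgeR (0.0938 and 0.115). Ndufa4l2 differed by 1.598 (adjusted p = 0.105). Its first moM library, at 1.22 CPM against 0.270 and 0.0881 in the other two, lay above the lowest tnsIM library at 1.02, and without it the difference was 3.14 (adjusted p = 0.00353). The study's rule took in Cox4i2, Cox6a2 and Ndufa4l2 as 3 members, beside 16.8% of all genes. With the replicate block, which by the same check paired these libraries, Ndufb6 was called as well (0.60, adjusted p = 0.0294), beside 20.1% of all genes.

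Between matIMs and moMs of Ezr-KOm mice 0 members were called by edgeR, beside 23.3% of all genes, 1 had an unadjusted p under 0.05, 0 were called by DESeq2, and 0 met the study's rule, beside 22.5%. DESeq2 gave 2 members an unadjusted p under 0.05. Of all members 41 stood above zero, or 66 with library totals, which moved the median of all genes to 0.132. The 1 member under 0.05 by edgeR was Ndufa4, the complex IV subunit once listed in complex I, at 85.1, 94.75 and 94.75 CPM in moMs and 63.9, 61.3 and 74.0 in matIMs, without overlap, with a difference of -0.46 ± 0.18 (adjusted p = 0.0672, edgeR, or 0.0327 with the replicate block, under the same limit of that check). In WT mice it differed by -0.33 between these populations. Between matIMs and tnsIMs Cox4i2 (-3.03 ± 0.50) and Ndufa4l2 (-2.90 ± 0.69) were called lower (adjusted p = 0.000234 and 0.00507), 2 of 83 beside 18.2% of all genes, and the study's rule added Cox6a2 (-1.06) and took in 19.9% of all genes. The median member differed by -0.13, with 66 of 83 below zero.

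Direction was shared between genotypes for 73 of 83 members in tnsIMs against moMs, 60 in matIMs against moMs and 64 in matIMs against tnsIMs, or 88.0%, 72.3% and 77.1%, where 83.8%, 82.4% and 80.8% of all tested genes shared it.

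The second question was whether loss of ezrin changes these genes. No member was called by edgeR between Ezr-KOm and WT in any population, 0 were called by DESeq2 and 0 met the study's rule. For moMs, tnsIMs and matIMs in turn, 0.171%, 0.164% and 0.152% of all tested genes were called, while the study's rule took in 2.51%, 1.83% and 2.40%. At an unadjusted p under 0.05 there was 1 member in moMs, 0 in tnsIMs and 0 in matIMs, beside 3.74%, 3.24% and 3.84% of all genes, and DESeq2 gave the same 3 counts. With the replicate block, which by the check paired these libraries, 0 members were called in each, beside 0.266%, 0.215% and 0.24% of all genes. Among the 77 members with at least 10 CPM on average the median SE was 0.206, 0.205 and 0.206 on the log2 scale, and 0 of them differed by more than 0.5 in any population.

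The member closest to a call was the same in each population. Ndufb10, an accessory subunit of the complex I membrane arm (chr17:24941034-24943452), had the smallest p of all members in each. It stood at 88.4, 75.7 and 75.2 CPM in WT moMs and 59.4, 55.3 and 60.8 in Ezr-KOm moMs, a difference of -0.45 ± 0.19 (unadjusted p = 0.0316, adjusted p = 1, edgeR). In tnsIMs it stood at 77.1, 105 and 64.5 CPM and at 65.4, 79.4 and 44.1, which overlap, a difference of -0.38 ± 0.19. In matIMs it stood at 86.7, 87.1 and 67.0 CPM and at 60.5, 62.3 and 64.6, a difference of -0.36 ± 0.19. The Ezr-KOm libraries lay below the WT libraries in moMs and matIMs without overlap, and below the WT library of the same number in all 9 pairs. Ndufb10 was picked by its p from these same values, so this order adds no support. Same-numbered libraries of different populations tended to deviate together, so the 9 pairs are not separate observations. WT mice lacked the floxed gene, so the genotypes may also differ in DNA linked to it. The part of such DNA in the level of Ndufb10 was not tested.

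**Figure D5:**
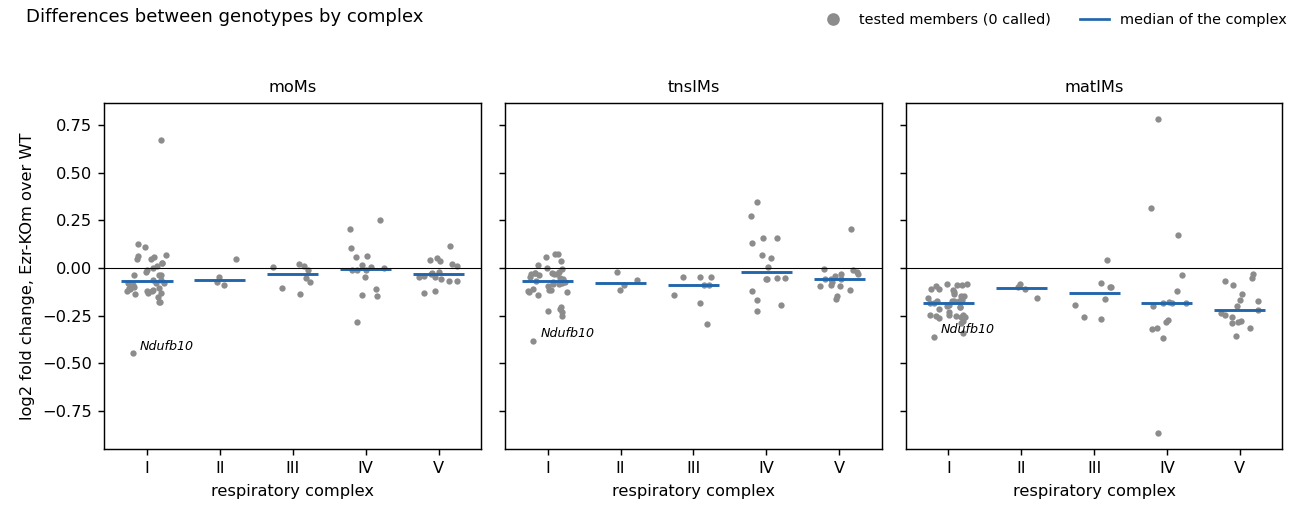
Log2 fold change of Ezr-KOm over WT (y axis) of each tested member by respiratory complex (x axis), in moMs, tnsIMs and matIMs; blue lines are medians of a complex and Ndufb10 is labelled. No member was called; Ndufb10 lies at -0.45, -0.38 and -0.36, and in matIMs 79 of 83 members lie below zero.

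In matIMs the members as a group stood lower in Ezr-KOm mice. The median difference was -0.18, with 79 of 83 below zero, while the median over all genes was -0.0014. The sums read 11670, 10260 and 8514 CPM in WT and 9520, 8621 and 8954 in Ezr-KOm matIMs, so that the third WT library lay below every Ezr-KOm library. The median was -0.0213 without the first WT library and -0.35 without the third. As members move together from library to library, the 79 are not separate observations. In moMs and tnsIMs the medians were -0.039 and -0.058, with 54 and 68 of 83 below zero. They turned to 0.038 without the first WT moM library, to 0.0492 and 0.0211 without the first or second WT tnsIM library and to 0.14 without the third Ezr-KOm tnsIM library.

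Complex by complex, the matIM medians were -0.18 for complex I, -0.10 for II, -0.13 for III, -0.18 for IV and -0.22 for V. Of the core subunits, Sdha differed by -0.083, Uqcrc1 by 0.040, Cox4i1 by -0.18, Atp5a1 by -0.17 and Atp5b by -0.17 in matIMs, with SE from 0.107 to 0.213. The largest differences on either side were those of scarce genes, Cox7a1 (-0.87 ± 0.50) and Cox5b-ps (0.78 ± 0.53).

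The difference between genotypes was also compared between populations. In the 3 interaction terms 0 members and 0% of all genes were called by edgeR, and 0 members by DESeq2. At an unadjusted p under 0.05 there were 0 members by either tool, beside 1.47% of all genes for tnsIMs against moMs, 1.70% for matIMs against moMs and 1.16% for matIMs against tnsIMs. The median SE of a member was then 0.291.

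Genes around the respiratory chain were described from lists. Of 44 tested assembly factors, 2 were higher and 1 lower in WT tnsIMs than in moMs, and 7 higher and 1 lower in matIMs, beside 21.6% and 24.8% of all tested genes called in either direction in these comparisons. Cox11, a copper chaperone of complex IV, was higher in both (1.36 and 1.2), Sdhaf1, which helps insert iron-sulfur clusters into Sdhb, was higher in matIMs (1.28), and Ndufaf7, a methyltransferase of complex I assembly, was lower in both (-1.06 and -0.58). Of 77 mitochondrial ribosomal proteins, 5 were higher in tnsIMs and 13 in matIMs, and 0 lower, beside the same 21.6% and 24.8%, with medians of 0.27 and 0.22 against 0.015 and 0.013 over all genes.

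Among 14 enzymes of the tricarboxylic acid cycle, 2 were higher in WT tnsIMs and 3 in matIMs than in moMs, with Mdh2, malate dehydrogenase, called in both (0.65 and 0.79), Idh3a of isocitrate dehydrogenase in tnsIMs (0.49) and Fh1, fumarase, in matIMs (1.24). The background for each list of this paragraph was 21.6% of all tested genes called in tnsIMs and 24.8% in matIMs. Among 16 glycolysis enzymes 0 were called in tnsIMs, and in matIMs Pfkp was higher (0.90) and Hk3 (-1.52) and Pkm (-0.54) were lower. Of 8 genes for mobile carriers and other electron inputs, Sqor, which feeds electrons from sulfide into ubiquinone, was the 1 called, lower in tnsIMs (-1.16) and matIMs (-1.78), while cytochrome c (Cycs) differed by -0.070 and 0.0061.

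Regulators of mitochondrial biogenesis gave 1 called gene of 14 in tnsIMs, Myc (0.80), and 4 in matIMs, with Myc (0.73), Tfb1m (0.93) and Tfam (0.53), the mitochondrial transcription factors, higher, and Polg, the mitochondrial DNA polymerase, lower (-1.19). These counts, and those for membranes and import below, stand beside 21.6% and 24.8% of all tested genes called in tnsIMs and matIMs. The coactivator Ppargc1b differed by 0.49 in tnsIMs (adjusted p = 0.131). Of 15 tested genes of mitochondrial membranes and import, 2 were higher in tnsIMs, Tomm40 (0.69) and Phb2 (0.65), and 1 in matIMs, the ADP/ATP carrier Slc25a4 (0.48).

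AA467197, the mouse Nmes1 or C15orf48 gene, encodes an LPS-induced relative of Ndufa4 that can take its place in complex IV. It stood at 108, 75.3 and 85.2 CPM in WT moMs, 240, 164 and 149 in tnsIMs and 308, 241 and 127 in matIMs, with no overlap with moMs in either. The difference was 1.05 ± 0.28 in tnsIMs (adjusted p = 0.0114, edgeR) and 1.34 ± 0.28 in matIMs (adjusted p = 0.00151, edgeR), while Ndufa4 differed by -0.10 and -0.33 and was not called. In Ezr-KOm mice AA467197 was 0.73 higher in tnsIMs (adjusted p = 0.0882). Of the 7 tested genes on the LPS list, AA467197 was the 1 called in WT tnsIMs, and in WT matIMs Bnip3 (-0.86), Hif1a (-0.49) and Sod2 (-0.49) were lower. Of all tested genes, 21.6% and 24.8% were called in these comparisons. Acod1, which makes the complex II inhibitor itaconate, differed by 0.70 in WT tnsIMs (adjusted p = 0.161) and -0.11 in matIMs. Atpif1 differed by 0.71 and 0.76 (adjusted p = 0.129 and 0.0996).

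None of the genes on the respiratory and metabolic lists was called between genotypes in any population. Their list medians in matIMs lay between -0.18 for mitochondrial ribosomal proteins and -0.0048 for regulators of biogenesis, so that the ribosomal proteins stood as far below zero as the subunits themselves.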

How the data were processed

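RNA-seq was made from sorted lung macrophages with SMART-Seq v4 and Nextera XT libraries, read in pairs on an Illumina instrument. The deposited counts per gene were made by the authors with STAR 2.7.9a on GRCm39 and Gencode annotation. They are not normalized, and which strand column was used is not given in the sources used here. Groups came from the sample labels, with 3 libraries in each of 6 groups. Totals of 16512783 to 48460995 counts limit the precision for genes near 1 CPM, and such limits cover counting error only.

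Genes were kept with edgeR's filterByExpr at a smallest count of 10, scaled by TMM (factors 0.931 to 1.07) and tested with glmQLFTest in 1 model of 6 groups (edgeR 4.0.16, R 4.3.3), with Benjamini-Hochberg adjustment over 15811 genes. The scripts were tested on simulated data. CPM values use TMM-scaled totals. Lengths were medians over a gene's protein-coding transcripts, or all where it had none. Copies were found with BLAST 2.17.0. Alternatives were DESeq2 1.42.0, other scalings, filters and fits, and leaving out libraries. Leaving out 1 replicate number in every group and an offset for transcript length were chosen after seeing the data.

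Members named in the text were up to 6 each of the higher and the lower members called between WT populations, taken in order of p, members called or meeting the study's rule between genotypes, a set of core and restricted subunits, the highest and lowest per length in each complex, and members not tested. Ndufb10, Ndufb6, Uqcr10, Atp5o, Higd1b, Notch3, Pdgfrb, Rgs5 and Kcnj8 were added after their values were seen. Members and gene lists were chosen with earlier results of these data known. Replicate numbers were taken to pair libraries where deviations from group means of every same-numbered pair correlated above 0.1. This held for 7 of 9 comparisons, with correlations of 0.102 to 0.397, and not for matIMs against moMs. The labels do not say whether a number marks a mouse. The values of 1 member are not reported here.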

Additional observations from a re-analysis of the deposited data

How the results depend on the processing

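No called difference turned its direction under any alternative tried, and DESeq2 called 6, 1, 3, 3, 0 and 2 members in the 6 population comparisons, as edgeR did. The numbers of members called moved by more than 1.5 times as follows, and the cause was not tested. These settings can change the calls over all genes too. The share of all genes called is given below for the replicate block only, so the other counts are not read as particular to the members. For tnsIMs against moMs in WT, 6 members became 2 with at least 10 counts in every library. That filter removes Cox4i2, Cox6a2 and Ndufa4l2, whereas Cox6b2 stayed in and had an adjusted p of 0.0562 (edgeR). For matIMs against moMs in WT, 1 became 2 with library totals only and 2 with only the 2 groups in the fit. With at least 10 counts in every library, 0 were called for matIMs against tnsIMs in either genotype and 0 for tnsIMs against moMs in Ezr-KOm. In the last of these Cox7a2l stayed in and had an adjusted p of 0.0635 (edgeR). With only the 2 groups, 1 was called for tnsIMs against moMs and 1 for matIMs against moMs in Ezr-KOm, and an offset for transcript length gave 1 in the last.

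With the replicate block, matIMs against moMs gave 4 members in WT (Cox7a2l, Atp5b, Atp5d and Cox5a) and 1 in Ezr-KOm (Ndufa4), comparisons in which the pairing check failed although 6 of 6 libraries correlated best with their own number. Beyond these and the calls added in the report for tnsIMs against moMs, the block changed no call. A block of number within genotype gave 5 for matIMs against moMs in WT, and 6 for tnsIMs and 1 for matIMs against moMs in Ezr-KOm. The block with library totals only gave 12 and 13 in WT and 8 and 2 in Ezr-KOm for tnsIMs and matIMs against moMs. With the plain replicate block, 28.9% and 30.9% of all tested genes were called in WT and 20.1% and 29.3% in Ezr-KOm for the same comparisons. The block with the length offset gave 11 and 2 in WT and 5 and 2 in Ezr-KOm for these, and 5 for matIMs against tnsIMs in Ezr-KOm.

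Leaving out 1 library in turn gave 3 (without the third moM library) to 9 (without the third tnsIM library) members for tnsIMs against moMs, 0 to 2 for matIMs against moMs and 2 to 4 for matIMs against tnsIMs in WT. In Ezr-KOm the ranges were 1 to 6, 0 to 1 and 2 to 5, with 6 and 5 without the third tnsIM library. No member was called between genotypes or in an interaction in any of these. Leaving out replicate 1, 2 or 3 of every group gave 2, 2 and 7 members for tnsIMs against moMs, 0, 0 and 1 for matIMs against moMs and 2, 0 and 2 for matIMs against tnsIMs in WT, and 2, 0 and 4, 0, 0 and 1, and 2, 1 and 3 in Ezr-KOm. The mean summed level of members was 8556 CPM in Ezr-KOm moMs with library totals and 9544 per 1e6 protein-coding nuclear counts in Ezr-KOm matIMs, against 8957 and 9032. Members near 1 CPM rest on few counts, which limits what can be said of Cox4i2, Cox6a2, Ndufa4l2 and Cox7a1.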
